A study of Mus musculus with 4 samples.

Results

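The genes described here were Ifit1, Ifit3, Isg15, Oasl2, Rsad2, Irf7, Usp18, Bst2 and Rtp4, antiviral genes that type I interferon is known to induce. They were taken by symbol, 9 of the 32285 genes in each of the 4 deposited count matrices, and all 9 were found. They were chosen by their higher counts in Din-KO than in WT libraries among mesenchyme-like cells. Their values in those cells were therefore the values that chose them and are given without a test, while the other cell classes came from the same 4 libraries. The study profiled dissociated tissue from the proximal end of the lower incisor of 15-day-old mice, the growing end of a tooth that renews itself throughout life. Droplet sequencing of transcript 3′ ends was run on 2 WT libraries and on 2 Din-KO libraries. The Din-KO mice carried a reporter deletion allele of the predicted gene Din, in which germline Cre had removed an exon and left LacZ, and the line came from a single gene-trapped embryonic stem cell clone. Dead cells had been removed from every sample. The number of mice in each library, their sex and their strain were not stated in the labels, so p-values measured only the spread between these libraries, which may be technical. The library names in the labels were WT-2 and KO-2 for replicate 1 of each genotype and CD1-WT and CD2-KO for replicate 2, so that the same-numbered libraries shared a way of naming whose meaning was not stated. Replicates are numbered here by title, and whether this naming marks a strain or a run cannot be told.

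Type I interferons are secreted proteins that cells make after sensing viral or misplaced nucleic acid. They bind a receptor of the Ifnar1 and Ifnar2 chains, whose kinases Jak1 and Tyk2 start a signal that ends in a complex with Irf9, which binds the interferon-stimulated response element in the promoters of responding genes. The products of those genes block viral RNA, protein synthesis, assembly or release, and some of them strengthen or end the signal itself.

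The members fall into effectors and regulators of this response. Ifit1 (ENSMUSG00000034459, chr19:34640871-34650009) and Ifit3 (ENSMUSG00000074896, chr19:34583531-34588731) encode tetratricopeptide proteins that bind foreign RNA or its partners, and Ifit3 has a near-identical neighbour, Ifit3b, so that its count is uncertain. Rsad2 (ENSMUSG00000020641, chr12:26442746-26456452) encodes viperin, a radical enzyme that makes a chain-terminating nucleotide. Oasl2 (ENSMUSG00000029561, chr5:114896936-114912234) belongs to the oligoadenylate synthetase family, which senses double-stranded RNA. Bst2 (ENSMUSG00000046718, chr8:71534255-71537456) encodes tetherin, which holds budding virions at the cell surface, and Rtp4 (ENSMUSG00000033355, chr16:23520291-23614222) encodes a zinc-finger protein. Isg15 (ENSMUSG00000035692, chr4:156199424-156200818) encodes a ubiquitin-like modifier. Usp18 (ENSMUSG00000030107, chr6:121245906-121270917) encodes the protease that removes it and also dampens the receptor. Irf7 (ENSMUSG00000025498, chr7:141262706-141266481) encodes the transcription factor that amplifies interferon production. Positions are those of GENCODE on GRCm38, the build of the files.

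The response element is printed here because it is what the members' promoters are known for, and its core was searched as GAAANNGAAA or, on the other strand, TTTCNNTTTC, with overlapping matches counted. RefSeq promoters on GRCm38.p6 (250 bases before to 50 after the gene start) were found for 7 members, all but Usp18 and Rtp4. At least 1 match lay in 5 of them, against 3.44% of 32851 promoters of the same length, and 4 held 2 or more, against 0.225%. The windows of Oasl2 and Irf7 held no match to these letters. Each line reads 5′ to 3′ on the strand of the gene with the matched letters in capitals, and Isg15 and Bst2 are shown because their matches overlap in a run while Ifit1, Ifit3 and Rsad2 carry the same core on the opposite strand.
Isg15, chr4:156200871-156200900, minus strand: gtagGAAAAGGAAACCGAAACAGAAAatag
Bst2, chr8:71537580-71537609, minus strand: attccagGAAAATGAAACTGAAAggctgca
Ifit1, chr19:34640794-34640823, plus strand: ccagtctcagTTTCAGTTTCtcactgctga
Ifit3, chr19:34583363-34583392, plus strand: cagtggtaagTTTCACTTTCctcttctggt
Rsad2, chr12:26456553-26456582, minus strand: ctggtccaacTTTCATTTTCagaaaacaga
The run of 3 overlapping matches in Isg15 ended 57 bases before the gene start, and the 2 in Bst2 ended 115 bases before it. The match shown for Ifit1 ended 76 bases before its start, that for Ifit3 147 and that for Rsad2 111.

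The 4 libraries held 3257 to 6958 barcodes and 32198098 to 54348039 UMIs (unique molecular identifiers, each 1 counted transcript molecule). After the filters on low quality, mitochondrial and hemoglobin content, 11310 of 20502 barcodes remained, 1272 to 4575 per library, with a median of 8016 to 11588 UMIs per cell. In all, 44 barcodes occurred in more than 1 library, and 11 of the kept ones did. Classes were named from marker genes as mesenchyme-like and so on, and 31 of 32 clusters received a name. Mesenchyme-like cells numbered 2440 and 825 in WT replicates 1 and 2 and 2820 and 616 in Din-KO replicates 1 and 2, and contained pulp-like, follicle-like and odontoblast-like cells. Levels are given as CPM, the UMIs of a gene summed over the cells of a class in a library and scaled to the same total of UMIs in every such sum, and are compared only within a gene, since 3′ counts of different genes do not share a scale. Din itself was at 36.5 and 28.9 CPM in WT against 22.8 and 28.5 CPM in Din-KO mesenchyme-like cells. Tags at the 3′ end can come from outside the removed exon, so these values do not check the labels. Cells with a Y-linked UMI and at most 1 Xist UMI made up 0% and 0% of WT and 43.0% and 43.2% of Din-KO mesenchyme-like cells. Sex and genotype could thus be separated only among cells that expressed Xist.

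In mesenchyme-like cells each of the 9 members was higher in both Din-KO libraries than in both WT libraries. Beside that count, 11.4% of all 15220 genes tested lay that way, and because this contrast chose the members nothing further is read from it. Summed over the members, the level was 111 and 45.3 CPM in WT and 444 and 224 CPM in Din-KO libraries, which made a mean of 334 ± 156 CPM against 78.3 ± 46.8 CPM (SD, n = 2 libraries each), a ratio of 4.27. Within each genotype replicate 1 was the higher library. The median log2 fold change of the 9 members was 1.76, beside -0.02 over all genes tested, and it was 2.91 when WT replicate 1 was left out and 1.40 when Din-KO replicate 1 was.

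Among the RNA-binding effectors, Ifit1 was at 9.26 and 1.55 CPM in WT against 32.4 and 19.2 CPM in Din-KO mesenchyme-like cells, a log2 fold change of 2.20 (SE 0.87). Each SE given is the size of the log2 fold change divided by the square root of edgeR's quasi-likelihood F. In the mesenchyme no test is read from it. Ifit3 was at 3.84 and 1.11 CPM in WT against 12.1 and 4.82 CPM in Din-KO (1.72, SE 0.79). Oasl2 was at 13.6 and 8.24 CPM in WT against 45.0 and 31.1 CPM in Din-KO (1.76, SE 0.36). Of these 3 genes Oasl2 had the most even libraries within a genotype, while the WT libraries of Ifit1 were the farthest apart. Rsad2 was scarce here, with 11 and 3 UMIs in the WT and 58 and 12 UMIs in the Din-KO libraries, or 0.423 and 0.186 against 2.21 and 0.981 CPM (2.31, SE 0.76).

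Bst2, the member with the most UMIs, was at 40.2 and 20.6 CPM in WT against 167 and 76.7 CPM in Din-KO mesenchyme-like cells, a log2 fold change of 1.97 (SE 0.55). Rtp4 was at 8.76 and 4.03 CPM in WT against 26.8 and 17.3 CPM in Din-KO (1.74, SE 0.49). For both genes replicate 1 was the higher library in each genotype.

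The modifier Isg15 had the largest log2 fold change of the 9 members here, 2.51 (SE 0.79), from 26.3 and 6.69 CPM in WT to 131 and 62.3 CPM in Din-KO libraries. Its protease Usp18 was at 3.65 and 0.991 CPM in WT against 12.1 and 3.84 CPM in Din-KO (1.74, SE 0.87). Irf7 was at 5.46 and 1.86 CPM in WT against 15.6 and 7.60 CPM in Din-KO (1.62, SE 0.67). For Usp18 the lower Din-KO library stood only just above the higher WT library. Summed immune marker UMIs were also higher in both Din-KO libraries of this class, at 164 and 171 CPM against 127 and 103 CPM. Among mesenchyme-like cells without any immune marker UMI the members summed to 106 and 45.2 CPM in WT and to 444 and 241 CPM in Din-KO libraries. Those cells were shallower than the rest in every library, with a median of 11559 against 19435.5 UMIs in Din-KO replicate 2. The part of immune RNA in the members' levels of this class was not tested. Genes of dissociation stress were at 527 and 1538 CPM in WT against 962 and 2575 CPM in Din-KO, where the groups overlapped and the Din-KO library was the higher of each same-numbered pair. Their part in the result was not tested.

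**Figure D1:**
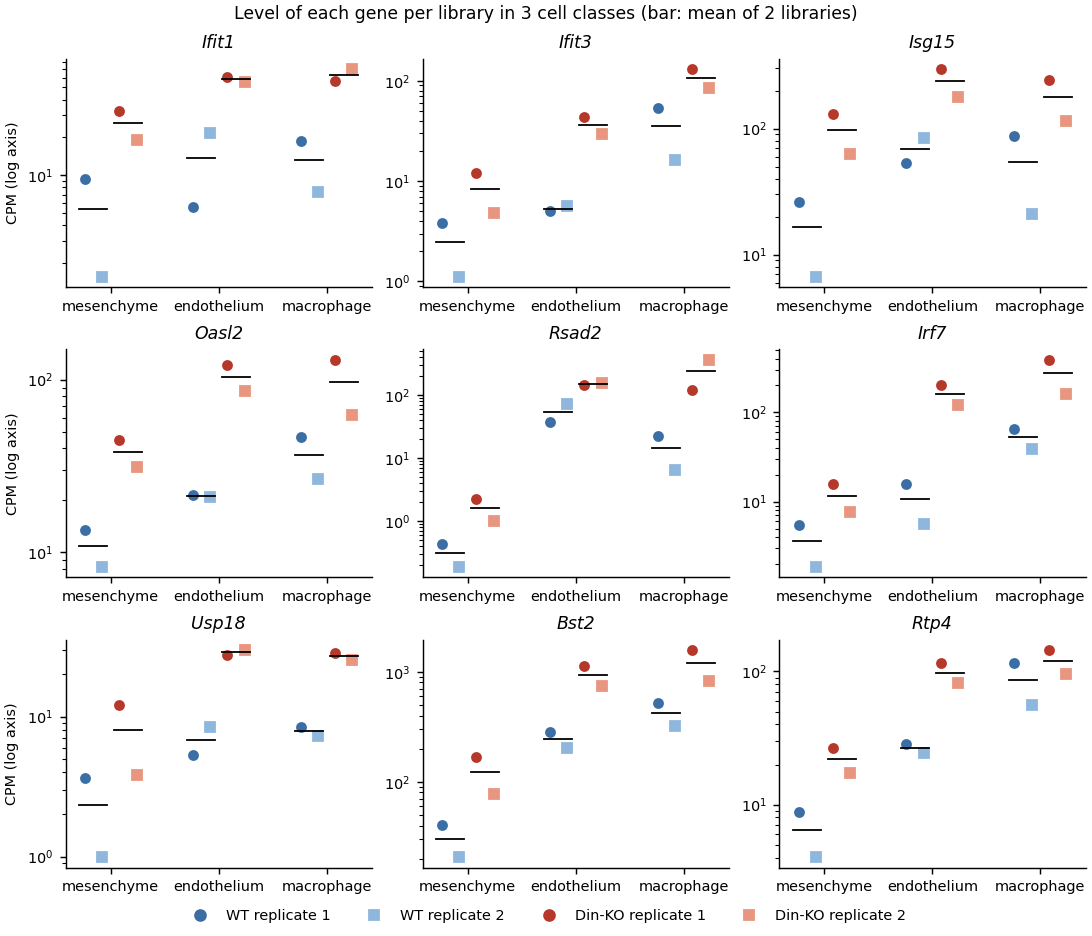
Level of each of the 9 members (CPM, logarithmic axis) in mesenchyme-like, endothelium-like and macrophage-like cells, with 1 point for each of the 4 libraries, WT and Din-KO in separate colours. The Din-KO points lie above the WT points for every gene except Rtp4 in macrophage-like cells.

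Within the mesenchyme the follicle-like cells showed larger differences than the pulp-like cells, although the difference between the subclasses was not tested. In follicle-like cells, the loose mesenchyme around the tooth, the members summed to 106 and 51.8 CPM in WT and to 575 and 344 CPM in Din-KO libraries, a ratio of 5.84, and all 9 members were higher in both Din-KO libraries (14.6% of genes tested). Rsad2, with 4 and 1 WT UMIs, was not among the genes tested. Ifit1 was at 7.60 and 2.02 CPM in WT against 67.5 and 32.7 CPM in Din-KO follicle-like cells (log2 fold change 3.41, SE 0.68), and Isg15 at 22.6 and 5.72 CPM against 198 and 96.7 CPM (3.36, SE 0.73). In pulp-like cells the sums were 121 and 51.5 CPM against 422 and 166 CPM, a ratio of 3.41. There 6 members were higher in both Din-KO libraries (11.0% of genes tested), while Ifit1 (10.6 and 1.67 against 26.9 and 10.6 CPM), Ifit3 and Rsad2 overlapped. Immune marker genes were at 221 and 66.3 CPM in WT against 336 and 284 CPM in Din-KO follicle-like cells. In pulp-like cells they were at 84.0 and 135 CPM against 90.9 and 76.5 CPM. The part of immune RNA in the contrast of these 2 subclasses was not tested. Odontoblast-like cells, the dentin-secreting cells, had low levels, with sums of 22.7 and 15.6 CPM in WT and 133 and 20.9 CPM in Din-KO, where Din-KO replicate 2 lay below WT replicate 1. There 4 members were higher in both Din-KO libraries (14.8% of genes tested), and none was when clusters were drawn at resolution 0.5 or with the interferon genes among the variable genes. Only 3 members passed the filter on low counts that set the genes tested, and of the 4 only Bst2 did. Ifit3, Usp18 and Rtp4 had 0 and 1, 0 and 1, and 1 and 2 UMIs in the WT libraries, so nothing is read from the count.

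Single clusters of the mesenchyme are parts of the cells that chose the members, so their values are a description. The summed level was higher in both Din-KO libraries in 8 of 12 mesenchyme-like clusters. Some of the 8 rested on little. The cluster led by Pdlim3 held 5 cells in WT replicate 2 and 9 in Din-KO replicate 2. The cluster led by Hist1h1a had 6 and 7 member UMIs in these libraries. In the cluster led by Cldn10 it was 105 and 58.7 CPM in WT and 967 and 299 CPM in Din-KO libraries, and in the cluster led by Sfrp2 and Aldh1a2 160 and 74.1 CPM against 806 and 480 CPM. The cluster led by Smoc2 did not separate the groups, with 416 and 88.4 CPM in WT and 431 and 365 CPM in Din-KO. The cluster led by Cnmd did not either, with 133 and 335 CPM against 416 and 260 CPM, where WT replicate 2 held 11 cells and Din-KO replicate 2 held 9. The groups also overlapped in the cluster led by Grik1 and Vcan, at 105 and 83.5 CPM in WT against 282 and 97.3 CPM in Din-KO. In the cluster led by Bglap they overlapped at 23.3 and 17.4 CPM against 177 and 15.4 CPM. In the 1 cluster that received no name, of mesenchyme kind, the groups overlapped at 84.8 and 59.9 CPM against 319 and 66.5 CPM, and its Din-KO replicate 2 held 15 cells.

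Endothelium-like cells, which line blood vessels, carried the members at higher levels in both genotypes. Summed over the members, the level was 456 and 448 CPM in WT and 2138 and 1487 CPM in Din-KO libraries, from 239, 101, 296 and 114 cells. All 9 members were higher in both Din-KO libraries, against 11.3% of genes tested in this class. The sums of the WT libraries, which differed in the mesenchyme, were close together here, but single members such as Ifit1, Irf7 and Rsad2 were less even, as given below. Immune marker genes were also higher in both Din-KO libraries, at 903 and 288 CPM in WT and 1312 and 1138 CPM in Din-KO, and cells with an immune UMI made up 47.7% and 51.5% against 63.2% and 65.8%. The part of immune RNA in the members' levels of this class was not tested.

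Irf7 had the largest difference in endothelium-like cells, from 15.6 and 5.61 CPM in WT to 203 and 121 CPM in Din-KO libraries (log2 fold change 3.84, SE 0.51). Ifit3 went from 4.98 and 5.61 CPM to 43.9 and 29.3 CPM (2.84, SE 0.37) and Oasl2 from 21.5 and 21.1 CPM to 121 and 86.5 CPM (2.31, SE 0.29). Ifit1 was less even, at 5.61 and 21.8 CPM in WT and 60.4 and 55.4 CPM in Din-KO (2.25, SE 0.54). These 4 genes had non-overlapping libraries, and the smallest gap relative to the WT spread was that of Ifit1. Usp18 was at 5.30 and 8.42 CPM against 27.7 and 29.9 CPM (2.14, SE 0.35), Bst2 at 285 and 205 CPM against 1129 and 749 CPM (1.96, SE 0.33), and Rtp4 at 28.7 and 24.6 CPM against 115 and 81.6 CPM (1.90, SE 0.29). Isg15 was at 53.3 and 84.2 CPM against 294 and 179 CPM (1.83, SE 0.35). Rsad2, scarce in the mesenchyme, was at 36.8 and 71.6 CPM in WT against 144 and 156 CPM in Din-KO endothelium-like cells (1.52, SE 0.33).

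With edgeR's quasi-likelihood test and Benjamini-Hochberg adjustment over all genes of the class, none of the 9 members was called in endothelium-like cells. Their adjusted p ran from 0.102 for Oasl2 to 0.613 for Ifit1, against 0.0536% of genes called higher in this class. At an unadjusted p under 0.05 all 9 members passed, against 1.99% of genes. DESeq2, the alternative tool, called 8 of them at an adjusted p under 0.05, all but Usp18 (0.0681), against 0.455% of genes, with the smallest value for Irf7 (1.21e-11). Without the filter on low counts edgeR called all 9 (1.03% of genes). On counts simulated from these libraries edgeR recovered 76.5% of genes changed 4-fold in this class and DESeq2 67.0%. The simulation gave genes of like level the same spread and changed 200 genes, so these shares may not hold for the members.

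Macrophage-like cells, resident phagocytes of the tissue, had the highest summed level among the classes in WT, 940 and 499 CPM, and 2824 and 1810 CPM in Din-KO libraries. There 8 members were higher in both Din-KO libraries, against 9.37% of genes tested, and Rtp4 overlapped at 116 and 55.7 CPM in WT and 145 and 96.1 CPM in Din-KO (log2 fold change 0.54, SE 0.42). Irf7 was at 65.7 and 39.2 CPM against 389 and 161 CPM (2.45, SE 0.51) and Bst2 at 522 and 319 CPM against 1580 and 831 CPM (1.59, SE 0.44). Ifit1 was at 18.9 and 7.30 CPM against 56.4 and 69.6 CPM (2.15, SE 0.42). In these genes both Din-KO libraries stood clear of the WT libraries.

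Rsad2 had the largest log2 fold change of the members in macrophage-like cells, 3.92 (SE 0.67), and the most uneven Din-KO libraries, with 22.1 and 6.39 CPM in WT and 121 and 364 CPM in Din-KO. Of the 82 macrophage-like cells of Din-KO replicate 2 that could be thinned to 2000 UMIs, 3 held an Rsad2 UMI (3.66%), against 75 of 722 in Din-KO replicate 1 (10.4%). The library with the higher level thus had the smaller share of cells with Rsad2. Ifit3 (53.9 and 16.4 against 130 and 85.3 CPM), Isg15 (86.7 and 21.0 against 244 and 115 CPM), Oasl2 (46.9 and 26.5 against 130 and 62.7 CPM) and Usp18 (8.38 and 7.30 against 28.4 and 25.5 CPM) also separated the groups. Usp18 had the most even libraries of these, and its log2 fold change was 1.82 (SE 0.34).

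In macrophage-like cells edgeR's quasi-likelihood test called none of the 9 members, with adjusted p from 0.211 for Rsad2 to 1.00, against 0.0644% of genes called higher. At an unadjusted p under 0.05, 8 members passed, against 2.34% of genes. DESeq2 called 4 members, Irf7 (adjusted p = 0.000155), Ifit1 (0.00893), Rsad2 (0.0289) and Bst2 (0.0306), against 0.414% of genes. Without the filter on low counts edgeR called 8 members (0.79% of genes).

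Monocyte or dendritic-like cells were few, with 60 and 30 WT and 107 and 70 Din-KO cells, and their summed levels were 413 and 190 CPM against 1715 and 554 CPM. Irf7 was at 38.3 and 38.7 CPM in WT against 468 and 169 CPM in Din-KO (log2 fold change 3.02, SE 0.57). Rsad2 was nearly absent from WT, with 1 UMI in all, and at 132 and 18.3 CPM in Din-KO libraries, a ratio of 66.4 with a counting interval of 11.7 to 2644. Ifit1 also had 1 WT UMI, and a ratio of 30.2 (5.23 to 1214). In this class 6 members were higher in both Din-KO libraries (14.8% of genes tested), and Ifit3, Oasl2 and Bst2 overlapped. edgeR called none of the members, 5 passed at an unadjusted p under 0.05 (1.53% of genes), and DESeq2 called only Irf7 (adjusted p = 0.00652, 0.0299% of genes). Among the 5 members, Ifit1, Rsad2 and Usp18 had 1, 1 and 2 WT UMIs and passed the filter through the Din-KO libraries, so nothing is read from their direction. Without the filter on low counts edgeR called 5 (0.426% of genes). That fit also tested the members with few WT UMIs, so nothing is read from its calls here.

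Epithelium-like cells, which form enamel, had the lowest summed levels in WT, 13.2 and 6.28 CPM, and 30.7 and 49.3 CPM in Din-KO libraries. Here 7 of the 9 members, of which 4 passed the filter on low counts, were higher in both Din-KO libraries (17.9% of genes tested), among them Isg15 at 0.713 and 0.285 CPM in WT and 5.0 and 11.4 CPM in Din-KO, which rested on 3 WT and 72 Din-KO UMIs, and Bst2 at 6.42 and 5.14 CPM against 15.7 and 22.6 CPM. The values of Rsad2 and Rtp4 overlapped. Immune marker genes were at 35.7 and 20.3 CPM in WT against 58.8 and 103 CPM in Din-KO epithelium-like cells, and their part in the members' levels was not tested. Ifit3 and Usp18 had no UMI in WT epithelium-like cells and 5 each in Din-KO, at least 1.21-fold higher against a floor of 3 UMIs over the group. By edgeR none of the 4 members that passed the filter was called, 4 had an unadjusted p under 0.05 (1.07% of genes), and DESeq2 called none (0.0435% of genes). Genes with so few WT UMIs passed the filter through the Din-KO libraries, so nothing is read from the direction of the members tested here.

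B-like cells summed to 80.3 and 29.4 CPM in WT and 197 and 130 CPM in Din-KO libraries, with 7 of the 9 members higher in both Din-KO libraries (10.1% of genes tested). Only 2 members passed the filter, Irf7, which was among the 7, and Bst2, which overlapped. T or NK-like cells summed to 163 and 282 CPM against 603 and 256 CPM, with 4 members higher in both (14.8%), where 3 passed the filter. Among those 4 were Ifit1 and Usp18, with 1 and 0 WT UMIs. Nothing is read from either count, since the shares beside them cover only genes that passed the filter. The sums overlapped in T or NK-like cells, where Bst2 was at 147 and 240 CPM in WT and 252 and 145 CPM in Din-KO, while Isg15 was at 6.40 and 0 CPM against 108 and 55.3 CPM. The T or NK-like cluster had Acp5, a marker of osteoclasts, among its leading genes. Without integration a T or NK-like cluster held 12 and 19 WT and 61 and 29 Din-KO cells. A separate osteoclast-like cluster then held 52 and 19 against 17 and 13. The class may thus mix cell types in shares that differ by genotype, and the part of this in its values was not tested. By edgeR none was called in B-like or in T or NK-like cells, and 1 member passed in each at an unadjusted p under 0.05 (1.22% and 4.04% of genes). In B-like cells it was Irf7, with 2 and 2 WT UMIs, which had passed the filter through its Din-KO libraries. DESeq2 called Isg15 in T or NK-like cells (adjusted p = 0.0321, 0.251% of genes), which had passed the filter in the same way, and none in B-like cells (0.0542%). Without the filter on low counts edgeR called 3 members in T or NK-like cells (1.6% of genes) and 1 in B-like cells (0.188%). That fit also tested members with few or no WT UMIs, so nothing is read from these calls. Among Xist cells alone no member was higher in both Din-KO libraries of B-like cells, and 2 were with the interferon genes kept for clustering. No member was lower in both Din-KO libraries in any of the 10 classes. A member with no UMI in a WT library could not be, which held for several members in the smaller classes. The share of all genes lower in both was not taken, so nothing is read from this.

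A test of whether the genotype effect differed between the 6 classes outside the mesenchyme, edgeR's genotype by class terms with the library as a block, called 0 of 12123 genes (0.0%). The unadjusted p of the members ran from 0.0748 for Rsad2 to 0.496. The spread of fold changes between these classes was therefore not distinguished from noise for any member.

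Among classes, the order of WT levels depended on the gene. Rsad2 was highest in endothelium-like cells (54.2 ± 24.6 CPM, SD, n = 2), where both WT libraries lay above those of macrophage-like cells (14.2 ± 11.1 CPM), and those in turn above the other classes with at least 20 cells in each library, each with a mean of at most 1.03 CPM. Irf7 was highest in macrophage-like cells (52.5 ± 18.7 CPM), followed by monocyte or dendritic-like cells (38.5 ± 0.309 CPM). Bst2 was also highest in macrophage-like cells (421 ± 143 CPM), with endothelium-like cells next (245 ± 56.4 CPM). So were Ifit3, Oasl2 and Rtp4, each with both WT libraries above those of the class next by mean. For Oasl2, however, WT replicate 1 of monocyte or dendritic-like cells (34.4 CPM) lay above WT replicate 2 of macrophage-like cells (26.5 CPM). Ifit1 and Isg15 did not separate endothelium-like from macrophage-like cells, at 13.7 ± 11.4 and 13.1 ± 8.17 CPM for Ifit1 and 68.7 ± 21.9 and 53.8 ± 46.4 CPM for Isg15. Usp18 did not separate them either (7.84 ± 0.764 CPM in macrophage-like and 6.86 ± 2.21 CPM in endothelium-like cells). The 9 genes thus had no single order of classes.

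Whether few or many cells carried the difference was read after each cell was thinned to 2000 UMIs, so that depth did not set the shares, which also left out the few shallower cells. At that depth 15.2% and 8.77% of WT and 40.0% and 28.2% of Din-KO mesenchyme-like cells held a UMI of any member. Without thinning the shares were 43.2% and 41.5% against 70.1% and 67.2%. Free RNA can place a UMI in a cell that does not express a gene, and WT epithelium-like cells, the class with the lowest levels, held any member in 2.10% and 0.826% of cells at the same depth and in 4.49% and 12.6% in the Din-KO libraries. The shares of mesenchyme-like cells lay above those of epithelium-like cells of the same library. Bst2 alone was found in 6.21% and 4.02% of WT and 21.4% and 13.3% of Din-KO mesenchyme-like cells, and Isg15 in 4.44% and 0.974% against 14.6% and 10.0%.

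Cells with 3 or more members at once were rare in the mesenchyme. They made up 30 of 2433 cells (1.23%, exact 95% binomial interval 0.833 to 1.76%) in WT replicate 1 and 0 of 821 in WT replicate 2, which allows a share of up to 0.365%. In Din-KO libraries they made up 140 of 2809 (4.98%, 4.21 to 5.85%) and 17 of 610 (2.79%, 1.63 to 4.42%). The intervals cover counting error only. Follicle-like cells had 0.952% and 0% in WT and 10.5% and 4.98% in Din-KO. In endothelium-like cells the shares were 2.97% and 4.95% against 37.8% and 31.2%, so that in the Din-KO libraries about 1 cell in 3 held at least 3 members at this depth. In macrophage-like cells they were 12.1% and 4.46% against 41.1% and 8.54%, and the groups overlapped.

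**Figure D2:**
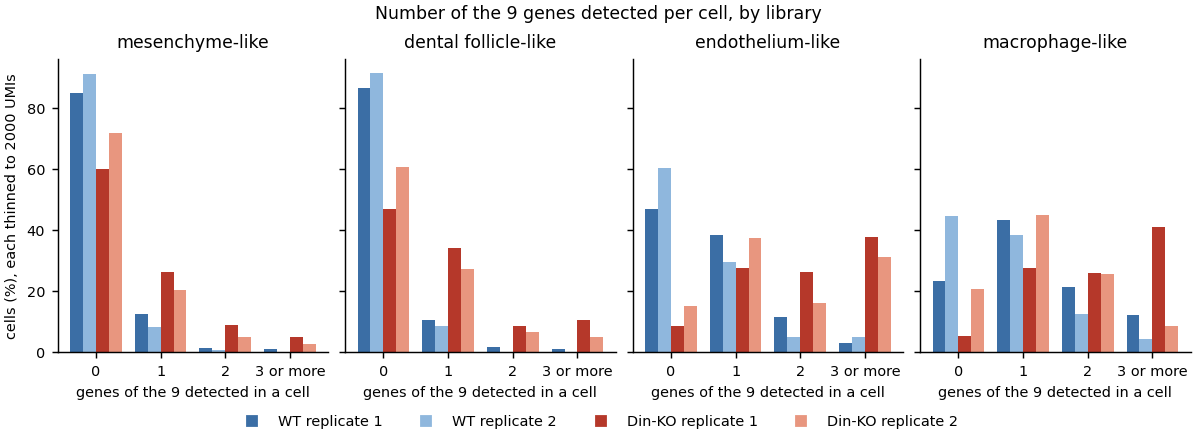
Share of cells (percent) by the number of the 9 members detected in each cell thinned to 2000 UMIs, for the 4 libraries in mesenchyme-like, endothelium-like and macrophage-like cells. In endothelium-like cells the 2 Din-KO libraries are shifted to more members per cell, with 8.50% and 15.2% of cells at 0 members against 47.0% and 60.4% in WT, and in mesenchyme-like cells most cells of every library remain at 0.

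The members' UMIs were spread over more cells in the Din-KO than in the WT libraries of mesenchyme-like and endothelium-like cells at this depth, but not of macrophage-like cells. The 10% of mesenchyme-like cells with the most member UMIs held 81.6% and 100% of them in WT and 59.4% and 64.5% in Din-KO, and for endothelium-like cells 40.5% and 64.6% against 30.6% and 30.5%. For macrophage-like cells the shares overlapped, at 35.1% and 39.5% against 29.2% and 58.7%, and without thinning those of mesenchyme-like cells overlapped too, at 64.3% and 57.6% against 59.5% and 57.7%. A small number of UMIs can reach only a small number of cells, so these shares are not independent of the level. When the top 10% of cells of each library was taken out, unthinned, mesenchyme-like cells still gave 47.8 and 26.8 CPM in WT and 229 and 125 CPM in Din-KO, a ratio of 4.74 against 4.27 with all cells. For endothelium-like cells the ratio was 4.76 against 4.01, for follicle-like cells 7.40 against 5.84, and for macrophage-like cells 2.88 against 3.22. The middle mesenchyme-like cell, ordered by the summed level, was at 0 and 0 CPM in WT against 206 and 113 CPM in Din-KO, and the middle endothelium-like cell at 343 and 271 CPM against 1724 and 1193 CPM. Because cells were removed by the level itself, the ratios after removal are a description and no independent evidence of how many cells carried the difference.

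**Figure D3:**
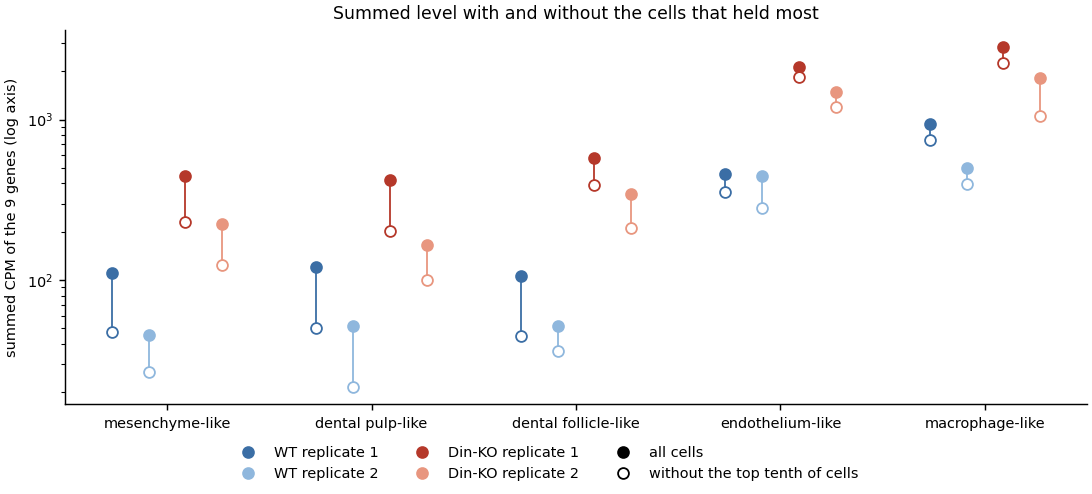
Summed level of the 9 members (CPM) per library in each class, with all cells and without the 10% of cells highest in the members. The Din-KO libraries of mesenchyme-like, endothelium-like and macrophage-like cells stay above the WT libraries after the top 10% is removed.

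A few cells nevertheless stood out in WT replicate 1. At 2000 UMIs the highest mesenchyme-like cell held 26 member UMIs there and 5 in WT replicate 2, against 46 and 12 in the Din-KO libraries. Over the 36 pairs of members, both were found in the same mesenchyme-like cell 6.60 times as often as the product of their shares in WT replicate 1, and 1.86 times in WT replicate 2, against 2.44 and 2.54 times in Din-KO. In endothelium-like cells the corresponding values were 1.28 and 3.73 against 1.29 and 1.34, so members met there little more often than their shares alone would give, except in WT replicate 2, which had 101 cells.

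Since only the Din-KO libraries held cells of the Y-linked kind defined above, the members were compared between Y-linked cells and cells with Xist inside the Din-KO libraries. Cells of neither kind were left out, 582 and 69 of them in the Din-KO mesenchyme-like libraries, at 400 and 224 CPM. In mesenchyme-like cells the summed level was 323 CPM in Y-linked and 659 CPM in Xist cells of replicate 1 and 235 and 212 CPM in those of replicate 2, against 112 and 45.3 CPM in WT Xist cells. In endothelium-like cells it was 2175 and 2331 CPM in replicate 1 and 1816 and 1401 CPM in replicate 2, against 457 and 449 CPM. In macrophage-like cells it was 2841 and 2785 CPM, and 2139 and 1630 CPM, against 921 and 499 CPM. Both kinds of Din-KO cell thus lay above the WT Xist cells in each of these classes, and the order of the 2 kinds differed between the 2 libraries in mesenchyme-like and endothelium-like cells but not in macrophage-like cells.

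**Figure D4:**
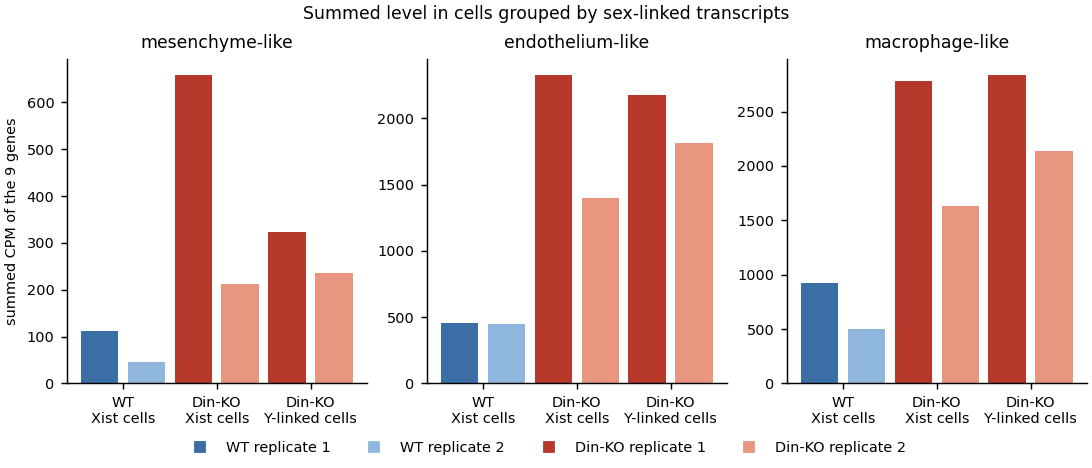
Summed level of the 9 members (CPM) in Din-KO cells with Y-linked UMIs, in Din-KO cells with Xist and in WT cells with Xist, per library and class. Y-linked cells held at most 1 Xist UMI, and Xist cells at least 3 and no Y-linked UMI. Both groups of Din-KO cells lie above the WT cells in mesenchyme-like, endothelium-like and macrophage-like cells.

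The genes around the members in the pathway were read in the same fits, by role. Their lists were chosen with earlier results of these data known, so counts from them are a description. Transcripts of the ligands were almost absent. Of 17 type I interferon genes in the files 3 had any UMI in kept cells, 5 UMIs in all, of which Ifnb1 had 3, in 2 monocyte or dendritic-like cells of Din-KO replicate 1. The type II interferon Ifng had 34 UMIs, 4 and 2 in WT and 23 and 5 in Din-KO libraries, in 16 cells of which 15 were T or NK-like. In T or NK-like cells Ifng was at 6.40 and 5.33 CPM in WT and 35.6 and 17.3 CPM in Din-KO, higher in both Din-KO libraries, but it did not pass the filter on low counts and was not tested. These levels may also depend on the mix of cell types in this class, given above.

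The receptor chains were too few for their direction in the mesenchyme to be read. In mesenchyme-like cells 0 of 6 were higher in both Din-KO libraries, beside 11.4% of genes tested. Ifnar1 was the 1 chain lower in both, at 41.8 and 41.4 CPM in WT and 36.4 and 36.2 CPM in Din-KO. The share of all genes lower in both was not taken. Ifnar2 was at 54.4 and 53.6 CPM against 50.4 and 58.2 CPM. In endothelium-like cells the log2 fold changes were -0.26 (SE 0.25) for Ifnar1 and -0.04 (SE 0.22) for Ifnar2. Neither edgeR nor DESeq2 called a receptor chain in any class outside the mesenchyme. There 1 chain was higher at an unadjusted p under 0.05 by edgeR, in T or NK-like cells (4.04% of genes). Of the signal transducers, 5 of 11 were higher in both Din-KO mesenchyme-like libraries, beside the 11.4% of genes given above. Irf9 was at 16.6 and 15.5 CPM against 31.9 and 26.6 CPM (0.83, SE 0.20), while Jak1 had a log2 fold change of -0.08.

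Many sensors of nucleic acid and further antiviral genes also had their Din-KO libraries above their WT libraries. Of 15 sensors in the files 6 were higher in mesenchyme-like cells in both Din-KO libraries, among them Ddx58, which encodes the RNA sensor RIG-I, at 14.7 and 12.6 CPM against 23.3 and 17.9 CPM (log2 fold change 0.56). Of 35 other antiviral genes in the files 24 were. Beside both counts, 11.4% of all genes tested lay that way in this class. Since both lists were chosen with earlier results of these data known, their counts in every class are no independent evidence. Lgals3bp was at 33.6 and 36.6 CPM in WT and 80.8 and 82.7 CPM in Din-KO (1.18, SE 0.18), and Ifi27l2a at 19.2 and 13.7 CPM against 78.9 and 85.3 CPM (2.28, SE 0.25), while the kinase gene Eif2ak2 differed by 0.26. In macrophage-like cells 1 of 33 other antiviral genes was called by edgeR (0.0644% of genes higher). It was Oasl1, a relative of Oasl2, which was at 9.52 and 9.13 CPM in WT against 63.9 and 64.7 CPM in Din-KO and rose by 2.83 on the log2 scale (SE 0.29, adjusted p = 0.0381). There 17 were higher at an unadjusted p under 0.05 (2.34% of genes), and DESeq2 called 8 (0.414% of genes). In endothelium-like cells edgeR called 0 of 30 (0.0536% of genes higher), 22 were higher at an unadjusted p under 0.05 (1.99% of genes), and DESeq2 called 5 (0.455% of genes). The members' promoters carried the response element in 5 of 7 cases and those of the other antiviral genes in 11 of 29.

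The genes most like the members were sought over 36 points, 9 classes in 4 libraries, by the correlation of each gene with the members' mean after each class's own mean was taken out. The 5 highest of 9526 genes, members and listed genes aside, were Igtp (Pearson's r = 0.88), Gbp3 (0.87), Iigp1 (0.86), Ifi47 (0.86) and B2m (0.85). The points share libraries, so these values are a description. Igtp, which encodes an immunity-related GTPase, was at 5.61 and 8.42 CPM in WT against 54.0 and 64.1 CPM in Din-KO endothelium-like cells (log2 fold change 3.14) and passed edgeR's adjusted threshold there. B2m, the light chain of MHC class I, was at 361 and 339 CPM against 1458 and 1383 CPM.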

How the data were processed

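The authors deposited raw UMI counts per gene and barcode, made per the file headers with Cell Ranger 6.0.2 and aligned to mm10/GRCm38. The members and every gene list were chosen with earlier results of these data known. As in the study, barcodes under 1000 genes, over 10% mitochondrial or over 3% hemoglobin UMIs were removed. Seurat 5.3.0 integrated the libraries and clustered cells (2000 variable genes without the members and other interferon genes, 30 components, resolution 1), and clusters were named from marker genes. Scrublet (scanpy 1.11.5) marked too few cells to have worked, so none were removed as doublets. Free RNA was not removed.

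UMIs were summed per library and class, in classes with at least 20 cells in each library. The quasi-likelihood test of edgeR 4.0.16, with TMM factors, filterByExpr and adjusted p (Benjamini-Hochberg over all genes) under 0.05, compared 2 Din-KO with 2 WT libraries outside the mesenchyme. DESeq2 1.42.0, other normalization, filters, clusterings, thinning depths, Xist cells only, a replicate block and leaving out each library were alternatives. Tests were tried on simulated counts. Exact permutation over 2 and 2 libraries cannot go below p = 0.333. Named genes were the 9 members, listed interferon genes past the threshold (at most 10 per class), the 5 highest genes of each list in the mesenchyme and the 5 most like the members. Genes named beyond these, such as Ifi27l2a and Ifnb1, were chosen after their values were seen.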

Additional observations from a re-analysis of the deposited data

Results flagged for a closer look

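Barcodes that the cell filter removed for hemoglobin held a higher summed level of the members than any tested class of kept cells of the same library, carried by Isg15 and Rsad2. Among barcodes with at least 50% hemoglobin UMIs, 343 and 420 in WT and 509 and 689 in Din-KO libraries, the members made up 5014 and 3408 CPM of the non-hemoglobin UMIs in WT and 11380 and 10773 CPM in Din-KO, a Din-KO mean of 11077 CPM. Isg15 was at 2794 and 1680 CPM in WT and 7220 and 6365 CPM in Din-KO, Rsad2 at 1918 and 1448 CPM against 2744 and 3490 CPM, and Irf7 at 128 and 67.0 CPM against 869 and 600 CPM. Bst2, at 48.2 to 153 CPM, Ifit3, at 0 to 5.22 CPM over the 4 libraries, Oasl2 and Rtp4 lay below their levels in macrophage-like cells. Usp18 lay above its levels there in every library, at 20.6 and 30.9 CPM in WT and 88.8 and 47.0 CPM in Din-KO. It rested on 9 and 12 UMIs in WT and 18 and 18 in Din-KO. Ifit1, at 73.4 and 54.1 CPM against 109 and 52.2 CPM, lay above its level in macrophage-like cells except in Din-KO replicate 2. In Din-KO replicate 1 these barcodes held 1463 Isg15 and 556 Rsad2 UMIs, while its mesenchyme-like cells held 3444 and 58, so the ratio of these genes was not the same in the barcodes and in the cells. In removed barcodes below 50% hemoglobin the summed level was 439 and 164 CPM in WT and 879 and 375 CPM in Din-KO, where the groups overlapped. These barcodes came from data outside the comparisons above, and no cause was tested.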

How the results depend on the processing

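The log2 fold changes of the members kept a positive sign in 781 of 787 alternatives. These reuse the same libraries and include the mesenchyme-like classes, where this direction chose the members. They also include members that passed the filter through their Din-KO libraries. The count thus describes only how the values depend on the processing. The 6 below 0 were Ifit3 in pulp-like (-1.48, up to 4.11 over the libraries left out), Isg15 in odontoblast-like (-0.57, up to 1.4997) and Bst2 in monocyte or dendritic-like cells (-0.15, up to 1.63), each without Din-KO replicate 1, and Bst2 in T or NK-like cells without WT replicate 1 (-0.18), without Din-KO replicate 1 (-0.38, up to 0.52 without Din-KO replicate 2) and at 500 genes per cell (-0.10). The cause was not tested for any of the changes given here.

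Of the members tested in the 6 classes outside the mesenchyme, edgeR called 0, DESeq2 14, edgeR with no filter on low counts 26, and edgeR with the top 5% of Scrublet scores removed 4. The bases differed. The main and DESeq2 fits tested 9 members in endothelium-like and macrophage-like cells and 8 in monocyte or dendritic-like cells. They tested 4 in epithelium-like, 3 in T or NK-like and 2 in B-like cells. Without the filter all 9 were tested in every class, members with few or no WT UMIs included, so nothing is read from the total of 26. Of all genes, DESeq2 called 0.0522 to 0.464% per class and edgeR without the filter 0.0 to 1.6%, in either direction. The 4 calls after Scrublet removal were in endothelium-like cells (0.286% of genes). Leaving out 1 library at a time gave 2 to 17 calls. Each of those fits left 1 library in a genotype, so nothing is read from their calls. With the replicate block 23 were called, and the deviations of same-numbered libraries correlated at 0.44 to 0.82 over genes. The labels do not say what the shared number or way of naming stands for, and there are 2 pairs, so the block was not used in the values above. It called 9 members in endothelium-like (1.35% of genes), 8 in macrophage-like (3.88%), 5 in monocyte or dendritic-like (0.868%) and 1 in T or NK-like cells (2.45%), and reversed no sign.

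Median log2 fold changes over the members that passed the filter ranged with 1 library left out from 1.40 to 2.91 in mesenchyme-like, 0.57 to 2.56 in pulp-like, 1.92 to 2.87 in follicle-like, -0.006 to 2.08 in odontoblast-like, 2.01 to 5.20 in epithelium-like, 1.18 to 2.85 in macrophage-like, 0.81 to 3.24 in monocyte or dendritic-like, 0.77 to 1.82 in B-like and 0.93 to 3.71 in T or NK-like cells. The odontoblast-like median (0.81) was 2.47 with interferon genes kept for clustering and at resolution 0.5, 2.15 without the top Scrublet scores and 1.92 in Xist cells. The epithelium-like median (2.50) was 3.16 without the filter, 1.98 without the top Scrublet scores and 2.996 in Xist cells. The monocyte or dendritic-like median (2.57) was 1.29 at resolution 0.5 and 1.38 at 500 genes, the B-like median (1.96) 1.03 with interferon genes kept, 0.86 at 500 genes and 0.20 in Xist cells, and the T or NK-like median (2.35) 4.41 without the filter.

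Members higher in both Din-KO libraries numbered 0 in odontoblast-like cells with interferon genes kept or at resolution 0.5, 1 without integration and 2 in Xist cells, in place of 4. In B-like cells they numbered 2 with interferon genes kept or at 500 genes, 3 without the top Scrublet scores and 0 in Xist cells, in place of 7. The difference in the share of cells with 3 or more members (3.27 percentage points in mesenchyme-like, 30.5 in endothelium-like cells) was 1.15 and 12.2 at 1000 UMIs, 7.23 and 45.2 at 4000, 18.1 and 46.7 without thinning, and 4.64 in mesenchyme-like Xist cells. The difference in the share of UMIs in the top 10% of cells (-28.8 and -22.0) was -12.2 in mesenchyme-like cells at 4000 UMIs, and -2.37 and -8.53 without thinning. Of the 5 genes most like the members 3 remained by Spearman's rho.

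Precision was limited by 2 libraries per genotype, by the few cells of the smaller classes and by member counts near 0 in WT cells. Adding the unnamed cluster to the mesenchyme and leaving out each library for the shares were chosen after seeing the data.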

Other observations

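Outside the members, 6 genes passed edgeR's adjusted threshold in endothelium-like and 7 in macrophage-like cells, and none in the other 4 classes tested. In endothelium-like cells H2-Q7, an MHC class I gene, was at 2.18 and 0.702 CPM in WT against 143 and 173 CPM in Din-KO (log2 fold change 6.52, adjusted p = 0.0173 by edgeR), and the others were Iigp1, Ddx3y, Tgtp2, AW112010 and Igtp. In macrophage-like cells Ifi202b was at 0 and 0 CPM in WT against 48.6 and 66.7 CPM in Din-KO (adjusted p = 0.0269 by edgeR), and Phlda3 at 3.81 and 2.74 CPM against 51.2 and 59.8 CPM. Ddx3y is Y-linked. The strain of the mice was not stated in the labels.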
